A study of Mus musculus with 50 samples.

Results

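Tiam2, Kif21b, Agap2, Plcxd2, Thra, Mpped1 and Ankrd34a are 7 genes of neuronal signalling that were grouped because their RNA was lower in brains of mutant mouse embryos. They are 7 of the 11708 genes with read counts in 18 RNA sequencing libraries of E13.5 whole mouse brain, and all 7 were found by their gene symbol. The members were chosen from genotype differences in these same libraries, so those differences are given as a description and carry no test. The rule that names them has no threshold.

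The libraries fall into 6 groups of 3, all from the strain labelled FVB/ANTJ. One comparison, here called the gtf2i cross, has embryos labelled wt, gtf2i and gtf2i/gtf2i. The other, called the ird1 cross, has its own wt embryos and embryos labelled ird1 and ird1/ird1. A name written once is read as 1 mutant allele and a name on both sides of the slash as 2. The labels give no description of the alleles, and no sex. They do not say whether the 3 libraries of a group came from separate litters, so the spread between them may be partly technical. The whole brain was homogenised, and fewer cells of a type cannot be told apart from less RNA per cell.

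Gtf2i encodes the transcription factor TFII-I, and Gtf2ird1 encodes a related protein that shares its repeat domains. The 7 members act at different points between the cell surface and the cytoskeleton or nucleus. Tiam2 is an exchange factor that loads the small GTPase Rac with GTP in growing neurites. Kif21b is a kinesin motor that also restrains microtubule growth in neurons. Agap2 is a GTPase-activating protein for Arf proteins and an enhancer of PI3-kinase signalling. Plcxd2 carries the X domain of phosphoinositide phospholipase C. Thra encodes thyroid hormone receptor alpha, a nuclear receptor that binds DNA with retinoid X receptors. Mpped1 carries a metallophosphoesterase domain, and Ankrd34a carries ankyrin repeats.

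The members were grouped by a shared fall in RNA, and windows of 300 bases around their annotated starts are described here. The sequences are from RefSeq, build GRCm38.p6, and run from 250 bases before to 50 bases after each start. Windows were found for 5 of the 7 members, 8 windows in all, and none for Kif21b and Thra. The third Tiam2 window, the first Mpped1 window and the Ankrd34a window are not printed. Capitals mark GATTA (on the other strand TAATC), a sequence bound by the Gtf2ird1 protein, and CANNTG, the E-box, which reads the same on both strands. Tiam2 has several annotated starts, and the counts per gene do not tell which is used. Its first window lies at chr17:3396957-3397256 on the plus strand and its second at chr17:3482065-3482364 on the plus strand. The Agap2 window is chr10:127078657-127078956, plus strand. The Plcxd2 window is chr16:46010364-46010663, minus strand, and the second Mpped1 window is chr15:83784579-83784878, plus strand.
Tiam2 first window: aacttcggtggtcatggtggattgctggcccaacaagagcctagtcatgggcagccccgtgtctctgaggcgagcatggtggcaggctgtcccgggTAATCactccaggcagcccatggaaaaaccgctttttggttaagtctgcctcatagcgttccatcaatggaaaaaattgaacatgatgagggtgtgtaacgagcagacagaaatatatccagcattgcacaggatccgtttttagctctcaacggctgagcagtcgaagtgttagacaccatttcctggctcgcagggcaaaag
Tiam2 second window: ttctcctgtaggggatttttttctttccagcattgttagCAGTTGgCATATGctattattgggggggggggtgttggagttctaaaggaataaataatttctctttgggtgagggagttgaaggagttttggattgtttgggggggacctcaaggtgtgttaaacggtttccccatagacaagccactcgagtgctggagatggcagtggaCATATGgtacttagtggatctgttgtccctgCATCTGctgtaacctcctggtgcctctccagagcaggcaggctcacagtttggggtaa
Agap2: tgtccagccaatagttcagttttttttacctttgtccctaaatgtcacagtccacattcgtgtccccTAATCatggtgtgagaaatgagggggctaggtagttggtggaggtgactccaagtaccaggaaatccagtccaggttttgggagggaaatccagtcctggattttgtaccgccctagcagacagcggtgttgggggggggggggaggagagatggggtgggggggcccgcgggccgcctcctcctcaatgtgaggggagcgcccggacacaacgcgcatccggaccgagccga
Plcxd2: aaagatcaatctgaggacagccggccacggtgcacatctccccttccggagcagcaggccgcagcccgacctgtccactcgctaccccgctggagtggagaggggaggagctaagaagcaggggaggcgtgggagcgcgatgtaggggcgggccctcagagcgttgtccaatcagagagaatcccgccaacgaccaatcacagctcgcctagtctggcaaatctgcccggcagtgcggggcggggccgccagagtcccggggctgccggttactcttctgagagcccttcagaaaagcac
Mpped1 second window: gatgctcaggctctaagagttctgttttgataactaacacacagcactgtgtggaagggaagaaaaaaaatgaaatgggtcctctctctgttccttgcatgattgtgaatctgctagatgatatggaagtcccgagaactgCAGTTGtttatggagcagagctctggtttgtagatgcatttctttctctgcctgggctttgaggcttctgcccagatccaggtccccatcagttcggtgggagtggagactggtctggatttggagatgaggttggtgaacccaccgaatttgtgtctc

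GATTA was present in the first Tiam2 window and in the Agap2 window, which is 2 of the 8 windows. Of the 32851 windows of all genes, 22% hold it. The E-box was present in 3 of the 8 windows, against 72.3% of all windows. The second Tiam2 window held 4 E-boxes, 2 of them with the letters CATATG. The third Tiam2 window, not printed, held 2, and the second Mpped1 window held 1. AGGTCA, the letters of a thyroid hormone receptor half-site, was searched on both strands and matched in 0 of the 8 windows and in 16.3% of all windows. The Plcxd2 window held none of the 3 motifs. A match is a description of the letters in a window and not a bound site, and a missing match says nothing about a factor.

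Per kilobase of transcript, the members covered a wide range of levels. CPM is the count per 1000000 counted reads, with libraries scaled by TMM, a trimmed mean of log ratios. Averaged over the 18 libraries, Thra had 180 CPM per kb, Kif21b 103, Agap2 45.3, Mpped1 26.5, Tiam2 7.71, Plcxd2 5.37 and Ankrd34a 4.48. Thra lay above 98.2% and Kif21b above 96.3% of the measured genes on this scale. Ankrd34a lay above only 20.2%. The lowest count behind any value of Ankrd34a was 33 reads, a counting error of 17.4%, and the lowest for Kif21b was 2940 reads, or 1.84%.

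The targeted genes were read first as a check of the labels. The mean level of Gtf2i was 624 CPM for wt, fell to 368 CPM with 1 mutant allele and to 82.5 CPM with 2. Its level stayed near 600 in the ird1 cross, from 584 to 641 CPM over the 9 libraries. Gtf2ird1 RNA was higher, not lower, in the libraries labelled ird1/ird1, at 223 CPM against 98.2 CPM in their wt libraries, and it was also higher in gtf2i/gtf2i, at 267 CPM against 92.4 CPM. The RNA level of Gtf2ird1 therefore separates the ird1 groups but shows no loss, and every ird1 direction below rests on the labels. Total counts ranged from 3239117 to 7371483 per library, and the shallowest was wt replicate 2 of the ird1 cross. That library stands apart for several members and is named where it does. Before TMM scaling, every gene of the table had at least 2.9 counts per 1000000 in every library, so a gene that was silent in 1 group is not analysed here. No 2 libraries of a group agreed within counting noise, so none was treated as a library deposited again, which does not show that they came from separate litters.

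Tiam2 had the largest log2 fold changes of the 7 in the gtf2i cross. In the gtf2i cross its level was 44.7, 35.5 and 62.1 CPM for wt, 53.0, 66.4 and 82.6 CPM for gtf2i, and 16.7, 22.9 and 24.9 CPM for gtf2i/gtf2i. In the ird1 cross it was 52.2, 54.6 and 56.2 CPM for wt, 41.6, 44.99 and 52.6 CPM for ird1, and 55.3, 49.5 and 34.3 CPM for ird1/ird1. All 3 gtf2i/gtf2i libraries were below each of the other 15, the nearest of which was ird1/ird1 replicate 3 at 34.3 CPM. The level in gtf2i/gtf2i was 44.7% of that in wt, a log2 fold change of -1.16 (SE 0.220). Against gtf2i the log2 fold change was -1.66 (SE 0.217), since the gtf2i group had the highest mean of the 6 groups, 67.3 ± 14.8 CPM (SD, n = 3). The gtf2i and wt libraries overlapped, and the remaining 4 groups had means of 46.4 to 54.4 CPM with overlapping libraries.

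**Figure D1:**
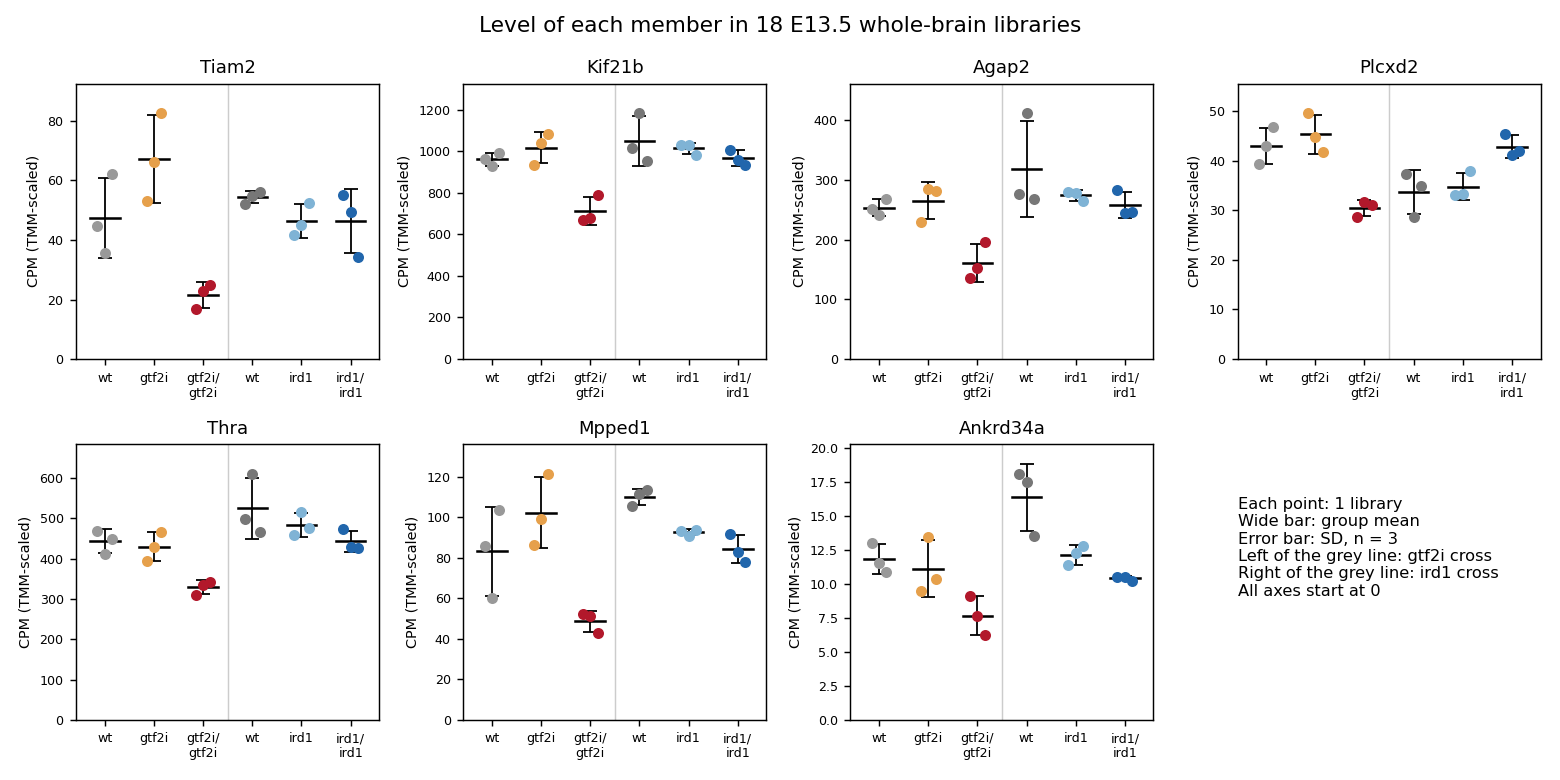
Level of each member in CPM (vertical axes, from 0) in the 18 libraries, grouped by genotype label (horizontal axes). Points are libraries, wide bars are group means and error bars are SDs with n = 3; the gtf2i/gtf2i libraries lie lowest in the gtf2i cross for all 7 members.

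Kif21b, the kinesin, was counted with the most reads. Its levels in the gtf2i cross were 960, 929 and 992 CPM for wt, 933, 1038 and 1080 CPM for gtf2i, and 668, 679 and 788 CPM for gtf2i/gtf2i. The ird1 cross had 1014, 1183 and 952 CPM for wt, 1030, 1029 and 980 CPM for ird1, and 1007, 958 and 932 CPM for ird1/ird1. The gtf2i/gtf2i libraries were below all others and the other 5 groups overlapped one another. In gtf2i/gtf2i its level stood at 73.8% of that in wt (log2 fold change -0.44, SE 0.0934). The value of -0.13 (SE 0.1001) in ird1/ird1 went to -0.03 when the wt library at 1183 CPM, replicate 2, was left out.

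Agap2, the Arf regulator, was likewise lowest in gtf2i/gtf2i. Its gtf2i cross levels were 252, 241 and 268 CPM for wt, 230, 285 and 281 CPM for gtf2i, and 136, 152 and 196 CPM for gtf2i/gtf2i. In the ird1 cross they were 276, 412 and 268 CPM for wt, 280, 279 and 264 CPM for ird1, and 284, 244 and 246 CPM for ird1/ird1. The log2 fold change in gtf2i/gtf2i was -0.66 (SE 0.126), or 63.4% of wt, with no overlap. The 412 CPM of wt replicate 2 raised the ird1 cross wt mean to 319 ± 80.8 CPM (SD, n = 3). With it, the ird1/ird1 log2 fold change was -0.31 (SE 0.137), and without it -0.08.

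Plcxd2 was the exception in the ird1 cross. Its levels were 39.4, 42.9 and 46.7 CPM for wt, 49.6, 44.7 and 41.7 CPM for gtf2i, and 28.5, 31.6 and 31.0 CPM for gtf2i/gtf2i. The ird1 cross gave 37.3, 28.6 and 35.0 CPM for wt, 33.1, 33.3 and 37.8 CPM for ird1, and 45.4, 41.1 and 41.9 CPM for ird1/ird1. The gtf2i/gtf2i group was below wt and gtf2i with no overlap, at 70.2% of wt and a log2 fold change of -0.51 (SE 0.113). The ird1/ird1 group was above its wt with no overlap, at a log2 fold change of 0.32 (SE 0.120). Over all genes, 15.1% were higher without overlap in that comparison. The wt groups themselves did not overlap, with 43.0 ± 3.66 CPM in the gtf2i cross and 33.6 ± 4.50 CPM in the ird1 cross (SD, n = 3), and the lowest wt library of the ird1 cross, the shallow replicate 2, was inside the gtf2i/gtf2i range.

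Thra, the thyroid hormone receptor, had 469, 413 and 450 CPM for wt, 393, 430 and 466 CPM for gtf2i, and 309, 335 and 343 CPM for gtf2i/gtf2i. In the ird1 cross its levels were 499, 611 and 466 CPM for wt, 459, 516 and 475 CPM for ird1, and 474, 428 and 427 CPM for ird1/ird1. The gtf2i/gtf2i libraries were again the lowest 3 of the 18, at 73.7% of wt and a log2 fold change of -0.44 (SE 0.0878). In ird1/ird1 the log2 fold change was -0.26 (SE 0.109) with overlap, and -0.13 without wt replicate 2, which was highest at 611 CPM. The 3′ end of Thra overlaps Nr1d1, a nuclear receptor gene of the circadian clock, by 1075 bases in RefSeq GRCm38.p6. The strand setting of the counting is not given, so reads of that stretch cannot be told apart. Nr1d1 had 6.77 ± 0.370 CPM in wt and 5.66 ± 0.886 CPM for gtf2i/gtf2i (SD, n = 3), small beside Thra.

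Mpped1 varied widely among the wt libraries of the gtf2i cross. It had 85.9, 60.1 and 104 CPM for wt, 86.5, 99.2 and 121 CPM for gtf2i, and 52.2, 51.3 and 42.7 CPM for gtf2i/gtf2i. In the ird1 cross it had 106, 112 and 113 CPM for wt, 93.3, 90.8 and 93.7 CPM for ird1, and 92.0, 83.1 and 78.0 CPM for ird1/ird1. In gtf2i/gtf2i its level stood at 57.8% of that in wt (log2 fold change -0.79, SE 0.176), and all 3 libraries were below the other 15. The ird1 cross was stepped, with ird1 libraries all below wt at a log2 fold change of -0.25 and ird1/ird1 libraries all below wt at -0.39 (SE 0.0904). The ird1 and ird1/ird1 libraries overlapped.

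Ankrd34a, the least abundant member, had 13.0, 11.5 and 10.9 CPM for wt, 9.50, 13.45 and 10.3 CPM for gtf2i, and 9.11, 7.62 and 6.26 CPM for gtf2i/gtf2i. Its ird1 cross levels were 18.1, 17.4 and 13.52 CPM for wt, 11.4, 12.2 and 12.8 CPM for ird1, and 10.5, 10.5 and 10.2 CPM for ird1/ird1. This was the member with the closest values in the 2 crosses, with log2 fold changes of -0.63 (SE 0.194) in gtf2i/gtf2i and -0.66 (SE 0.158) in ird1/ird1. Both groups lay below their own wt with no overlap. The wt groups of the crosses did not overlap either, at a log2 difference of -0.47 (SE 0.163), gtf2i cross minus ird1 cross. The ird1/ird1 libraries, at 10.2 to 10.5 CPM, were thus just below the lowest wt library of the gtf2i cross, at 10.9 CPM.

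**Figure D2:**
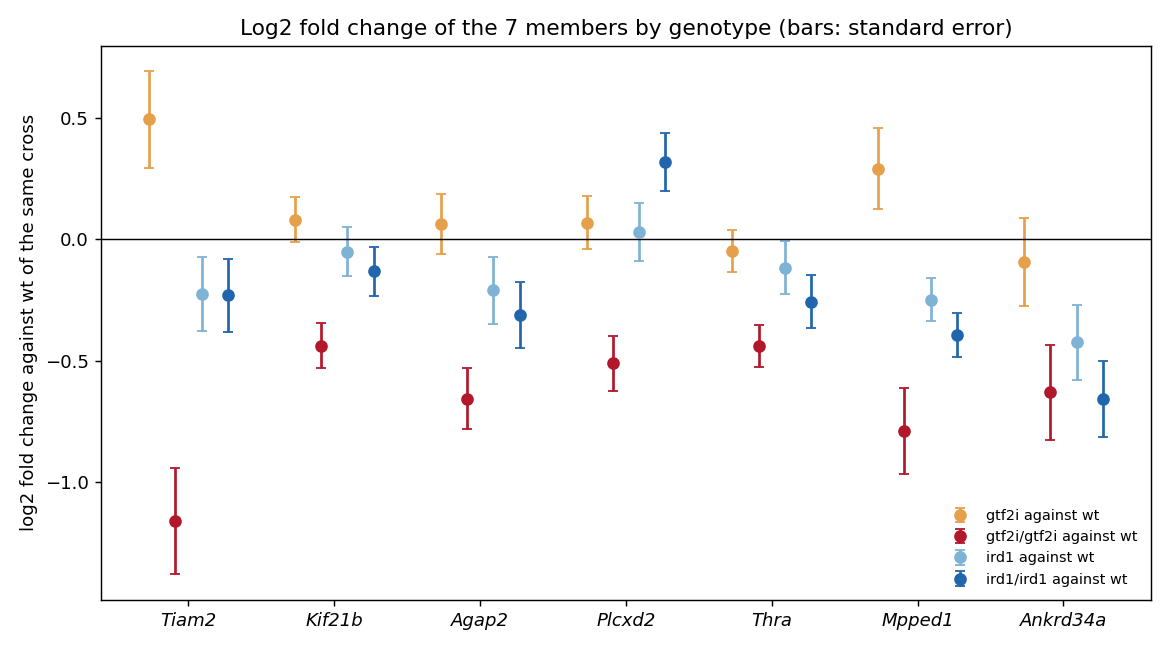
Log2 fold change of each member against the wt libraries of the same cross (vertical axis) for 4 genotype labels (colours), with standard errors. The gtf2i/gtf2i values run from -1.16 for Tiam2 to -0.44 for Kif21b and Thra, and Plcxd2 has the only ird1/ird1 value above 0.

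Across the 7 genes, gtf2i/gtf2i was the group with the lowest mean for every member. All 7 were lower than wt with no overlap of libraries, where 8.98% of all genes were, and all 7 were lower than gtf2i with no overlap, where 10% of all genes were. The median log2 fold change against wt was -0.63, beside 0.00 for all 11708 genes, as the choice of members fixes. In edgeR's quasi-likelihood test with adjustment over all genes, at an adjusted p under 0.05, Tiam2, Kif21b, Agap2 and Thra passed in the comparison with wt, where 0.53% of all genes passed lower. With the number in the sample title as a replicate block, 6 of the 7 passed, and 624 of the 11708 genes passed in that fit, against 110 without the block. Against gtf2i, 6 of the 7 passed, all but Ankrd34a, where 1.79% of all genes passed lower. These counts use the contrasts that chose the members, and nothing is read from them. The 2 comparisons share the gtf2i/gtf2i libraries. With gtf2i/gtf2i replicate 1, gtf2i/gtf2i replicate 2 or wt replicate 3 left out, 0 of the 7 passed against wt, and with wt replicate 1 left out only Tiam2 did. The log2 fold changes moved less, the median staying between -0.65 and -0.52.

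A single mutant allele gave smaller and mixed values. In gtf2i against wt the log2 fold change was 0.49 (SE 0.199) for Tiam2, 0.29 (SE 0.168) for Mpped1 and between -0.09 and 0.08 for the other 5 members. With single libraries left out, the Tiam2 value ran from 0.32 (without gtf2i replicate 3) to 0.75 (without wt replicate 3). That of Mpped1 ran from 0.11 (without wt replicate 2) to 0.49 (without wt replicate 3). The libraries of both groups overlapped for all 7, and 0 of 7 passed the edgeR test (1 at an unadjusted p under 0.05, and 0 with DESeq2). Of all genes, 0.00854% passed, 1.6% were at an unadjusted p under 0.05, and 3.79% were lower and 3.48% higher with no overlap. Within the ird1 cross, 6 of the 7 log2 fold changes of ird1/ird1 were below 0, as were 6 of 7 for ird1, beside 50.5% and 51.1% of all genes. In edgeR and in DESeq2 0 of 7 passed in both, where edgeR passed 0.00854% and 0% of all genes, with 5 of 7 at an unadjusted p under 0.05 in ird1/ird1 (16.1% of all genes) and 2 of 7 in ird1 (3.02% of all genes). Mpped1 and Ankrd34a were lower with no overlap in both, beside 11.8% of all genes in ird1/ird1 and 3.89% in ird1. These 2 comparisons share their wt libraries. Between ird1/ird1 and ird1, Ankrd34a was lower at -0.23 and Plcxd2 higher at 0.29 with no overlap, beside 8.54% and 8.47% of all genes, and the other 5 overlapped at -0.15 to -0.01. In edgeR and in DESeq2 0 of the 7 passed there, with 1 at an unadjusted p under 0.05 (4.66% of all genes). When the shallow wt library of the ird1 cross was left out, the ird1 values of Kif21b, Agap2 and Thra turned to between 0.00 and 0.04, and that of Plcxd2 went from 0.03 to -0.06.

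The wt groups of the 2 crosses were also compared with each other. The log2 difference, gtf2i cross minus ird1 cross, was below 0 for 6 members, from -0.13 (SE 0.0912) for Kif21b to -0.47 for Ankrd34a, and 0.34 (SE 0.113) for Plcxd2, where 51.2% of all genes were below 0. Agap2, Mpped1 and Ankrd34a were lower with no overlap, beside 15.6% of all genes, and Plcxd2 higher, beside 16.3%. In edgeR 0 of the 7 and 0% of all genes passed, and in DESeq2 0 of the 7 and 1354 of all genes, with 5 of 7 at an unadjusted p under 0.05, as were 32.7% of all genes. With wt replicate 1 left out of the gtf2i cross, Plcxd2 and Ankrd34a passed, and with wt replicate 1 left out of the ird1 cross, Plcxd2 did. In those fits 2076 and 1032 of all genes passed. Leaving out the shallow wt library moved the members' median from -0.24 to -0.12. The effects of the crosses, gtf2i/gtf2i minus ird1/ird1, differed by -0.93 (SE 0.289) for Tiam2 and -0.83 (SE 0.159) for Plcxd2. They differed by between -0.40 and -0.19 for Kif21b, Agap2, Thra and Mpped1, and by 0.02 (SE 0.246) for Ankrd34a. Plcxd2 was the 1 member that passed, where 0.0427% of all genes passed lower. It was chosen from these contrasts, so this is a description, and it passed in 3 of 12 fits with a library left out.

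The closest relatives of the members were not part of the choice and were tested, though they were listed with earlier results of these data known. Of 10 relatives listed, 6 were measured: Tiam1, Kif21a, Agap1, Agap3, Plcxd3 and Mpped2. Mpped2, the paralogue of Mpped1, was the 1 relative that passed in edgeR, with or without the block, in any contrast within the crosses. With DESeq2, 1 relative was also called lower between the wt groups and 1 in the difference of the crosses' effects, where 1354 and 84 of all genes passed. It had 140, 127 and 153 CPM for wt, 139, 140 and 139 CPM for gtf2i, and 103, 98.4 and 115 CPM for gtf2i/gtf2i, with the last group below both others. Against gtf2i it fell by 0.41 on the log2 scale (SE 0.0926, adjusted p = 0.0316, edgeR). Against wt the log2 fold change was also -0.41 (SE 0.0926) but the adjusted p was 0.0522 in edgeR, while it passed with DESeq2 and with the replicate block. With single libraries left out, the adjusted p against gtf2i ran from 0.00403 to 0.157 and passed in 1 of 6 fits, the one that left out gtf2i/gtf2i replicate 3.

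Tiam1, the other Tiam exchange factor, had 83.9, 93.5 and 94.8 CPM in wt and 89.0, 90.5 and 101 CPM for gtf2i/gtf2i, and these libraries overlapped. Its log2 fold change was 0.04 (SE 0.0936) beside -1.16 for Tiam2. Kif21a had 0.25 (SE 0.145) beside -0.44 for Kif21b. Agap1 had -0.13 (SE 0.0927) and Agap3 -0.05 (SE 0.0765) beside -0.66 for Agap2, and Plcxd3 had -0.27 (SE 0.246) beside -0.51 for Plcxd2. In edgeR the smallest adjusted p of these 5 relatives over the 6 contrasts within crosses was 0.296. The difference between a member and its relative was not tested.

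**Figure D3:**
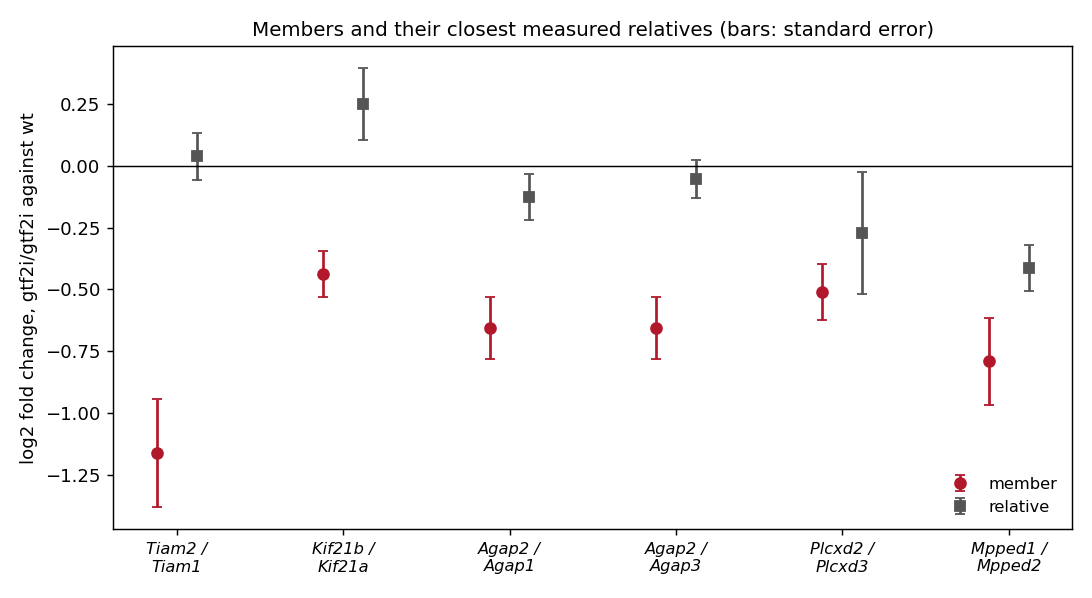
Log2 fold change of gtf2i/gtf2i against wt (vertical axis) for members (circles) and their measured relatives (squares), with standard errors; Agap2 is drawn beside each of its 2 relatives. Tiam1 at 0.04 and Kif21a at 0.25 lie above 0, while Mpped2 at -0.41 is the lowest of the relatives.

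The pathways around the members were followed with 7 gene lists, which held 163 measured genes in all besides the members. These lists too were chosen with earlier results of these data known. In gtf2i/gtf2i against wt, 0 of the 163 passed in edgeR, with 35 at an unadjusted p under 0.05, beside 0.94% and 14.4% of all genes. DESeq2 passed 2 higher and 5 lower there, and the edgeR fit with the replicate block 3 higher and 12 lower, fits in which 310 and 624 of all genes passed. The median log2 fold change of the 163 was -0.05, beside 0.00 for all genes. Against gtf2i, 2 passed higher and 9 lower in edgeR, beside 1.33% and 1.79% of all genes. DESeq2 passed 3 higher and 9 lower and the replicate block 3 higher and 18 lower, fits in which 504 and 892 of all genes passed. In ird1/ird1 against wt, 0 of the 163 passed in edgeR and in DESeq2, with 33 and 35 at an unadjusted p under 0.05. Of all genes, 1 and 3 passed in these fits. At an unadjusted p under 0.05 were 16.1% of all genes in edgeR, and 1760 of the 11708 in DESeq2.

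Around Tiam2, 0 of 20 Rac exchange factors and 0 of 24 Rac proteins and effectors passed against gtf2i in edgeR, with 4 and 3 at an unadjusted p under 0.05, as were 16.5% of all genes. DESeq2 passed 1 and 0, and the replicate block 1 and 2, all lower. Around Kif21b, 2 of 36 kinesins passed in edgeR, both lower, while DESeq2 passed 1 higher and 2 lower and the replicate block 1 higher and 4 lower. Kif1a, the motor that carries synaptic vesicle precursors, went from 861 ± 55.7 to 659 ± 65.0 CPM (SD, n = 3), a log2 fold change of -0.39 (SE 0.0917, adjusted p = 0.0358). Kif3c, a subunit of a kinesin-2 motor, had -0.38 (SE 0.0836, adjusted p = 0.0274). In all, 17 of the 36 kinesins were below 0, with a median of 0.03. At an unadjusted p under 0.05, 10 of the 36 were lower and 2 higher, beside 16.5% of all genes either way.

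Around Agap2, 2 of 19 Arf GTPase-activating proteins passed against gtf2i, both lower. Adap1, which binds phosphoinositides in neurons, went from 28.6 ± 6.56 to 15.5 ± 3.69 CPM (SD, n = 3), a log2 fold change of -0.88 (SE 0.202, adjusted p = 0.0322). Acap3 had -0.35 (SE 0.0758, adjusted p = 0.0267). Of the 30 genes of PI3-kinase and Akt signalling, 0 passed in DESeq2 or in edgeR without the block, with 4 and 3 at an unadjusted p under 0.05, and 2 passed lower with the block. Around Plcxd2, 2 of 14 phosphoinositide phospholipases C passed, both lower. Plch2 went from 32.3 ± 5.65 to 17.0 ± 2.70 CPM (SD, n = 3), a log2 fold change of -0.92 (SE 0.155, adjusted p = 0.00739). Plcb1, the phospholipase C that Gq proteins activate, had -0.86 (SE 0.154, adjusted p = 0.0114). In wt the Plch2 and Plcb1 values were 27.6 ± 0.511 and 23.9 ± 3.86 CPM (SD, n = 3), and against wt their adjusted p in edgeR was 0.0554 and 0.0576. With DESeq2 and with the replicate block, 2 of the 14 passed lower against wt.

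Around Thra, 5 of 20 genes passed against gtf2i, 3 lower and 2 higher. The lower ones included Rxrg, a retinoid X receptor and partner of thyroid hormone receptors, at -0.93 (SE 0.215, adjusted p = 0.0322), and Camk4, a calcium-dependent kinase, at -0.89 (SE 0.215, adjusted p = 0.0390). The higher ones were Crym, a cytosolic thyroid hormone binding protein, at 0.88 (SE 0.191, adjusted p = 0.0266) and Rxra at 0.46 (SE 0.115, adjusted p = 0.0465). The level of Crym went from 9.74 ± 1.66 to 18.1 ± 3.51 CPM (SD, n = 3). Of the retinoid X receptors, Rxrg was thus lower and Rxra higher in the same libraries. Against wt 0 of the 20 passed in edgeR, with 6 at an unadjusted p under 0.05, and 1 passed with DESeq2, higher, and 1 higher and 2 lower with the replicate block. Each of the 11 calls against gtf2i in these lists was lost when some single library was left out. Plch2 was kept in 4 of 6 such fits, with an adjusted p up to 0.0549.

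Markers of cell types and regions moved in the gtf2i/gtf2i libraries too. The summed level of 20 telencephalon markers was 1762 to 1831 CPM there, against 2250 to 2555 CPM in wt and 2508 to 2604 CPM for gtf2i, and 19 of the 20 genes were below wt. In edgeR 7 of the 20 passed lower, beside 0.53% of all genes, and Tbr1, Eomes, Bcl11b, Dlx1, Neurod2 and Neurod6 were among them. The sum was 73.8% of wt, the same percentage as for Kif21b, while Tiam2 was at 44.7% and Mpped1 at 57.8%. The 20 neuron markers summed to 7122 to 9338 CPM, overlapping the 8945 to 9753 CPM of wt through 1 library, gtf2i/gtf2i replicate 3. Of these markers 17 of 20 were below wt, 8 of them at an unadjusted p under 0.05. Their median on the log2 scale was -0.23, beside 0.00 for all genes. In edgeR 0 of the 20 passed, while DESeq2 passed 3 and the replicate block 7, all lower. Over all 11708 genes these fits passed 110, 310 and 624, and 14.4% were at an unadjusted p under 0.05. The highest of the 3, gtf2i/gtf2i replicate 3, also had the highest Tiam2, Kif21b, Agap2 and Thra of its group, but the lowest Mpped1 and Ankrd34a. Radial glia markers (15 genes) summed to 3993 to 4507 CPM against 3425 to 3806 CPM for wt, and red blood cell markers (8 genes) to 5790 to 9184 CPM against 4091 to 5314 CPM. Mesenchyme markers (15 genes) summed to 1705 to 2574 CPM against 1548 to 1751 CPM for wt, which is 131% of wt, and 3 of the 15 were below wt. Of these 15, 6 were higher at an unadjusted p under 0.05, and 0 passed in edgeR. DESeq2 passed 1, higher, and the replicate block 3 higher and 1 lower. Of the radial glia markers 0 passed against wt in edgeR, 2 with DESeq2 and 4 with the block, all higher. Of the red blood cell markers 2 passed in edgeR, Hbb-y and Slc4a1, 3 with DESeq2 and 5 with the block, all higher. Against gtf2i, where the pathway calls lie, 1.33% of all genes passed higher and 1.79% lower in edgeR. There 3 of 15 radial glia, 5 of 8 red blood cell and 1 of 15 mesenchyme markers passed higher. Passing lower were 1 of 20 neuron and 11 of 20 telencephalon markers. In the ird1 cross the telencephalon sum overlapped between groups, from 2189 to 2572 CPM over the 9 libraries. Every marker in the table was above 0 in every library, while Hopx of the radial glia list, Twist2 of the mesenchyme list and 6 of 14 red blood cell markers are not in the table. The part of these shifts in the members' values was not tested.

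**Figure D4:**
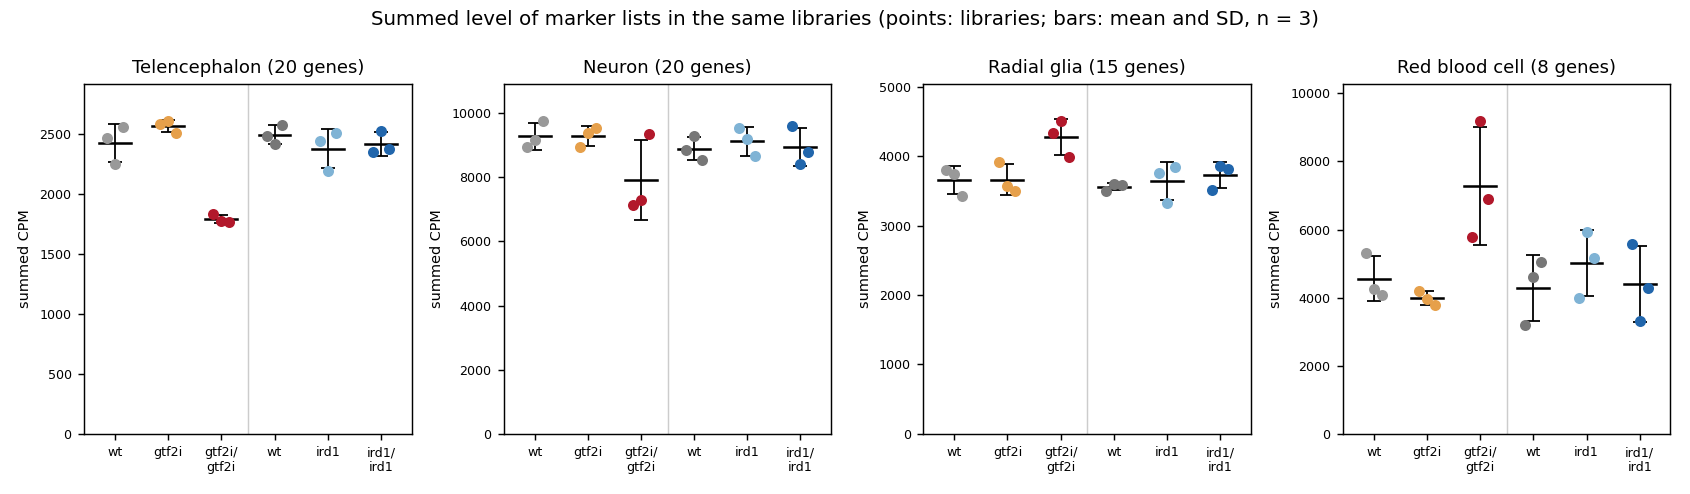
Summed CPM of 4 marker lists (vertical axes, from 0) in the same libraries by genotype label, with library points, group means and SDs, n = 3. The 3 gtf2i/gtf2i libraries lie lowest for telencephalon markers, and their mean is the highest for red blood cell markers.

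Variation among libraries of the same group was not used to choose the members, and it differed between pairs of them. Each log2 CPM value was taken as a deviation from its group mean, and Pearson's r was computed over the 18 libraries, as a description. Kif21b and Agap2 went together at r = 0.96, Kif21b and Thra at 0.84, and Agap2 and Thra at 0.83. Leaving out the shallow wt library of the ird1 cross, which had the highest values of all 3, gave 0.94, 0.73 and 0.68. Tiam2 and Mpped1 had 0.66, between 0.51 and 0.81 with any 1 library left out. Tiam2 had 0.51 with Kif21b, 0.48 with Agap2 and 0.50 with Thra, and 0.64, 0.65 and 0.67 without the shallow wt library, so it does not stand apart from these 3. Plcxd2 went against Kif21b, Agap2 and Thra at -0.46, -0.41 and -0.49, but without the same wt library these were -0.11, 0.04 and -0.13. Ankrd34a had values from -0.29 to 0.20 with the other 6. Over the 21 pairs the median was 0.18, from 0.07 to 0.37 with any 1 library left out, and the median r of the members with all genes was -0.01. Deviations of Kif21b, Agap2 and Thra ran against the mean log2 CPM deviation of the radial glia markers, at -0.75, -0.69 and -0.73. Mpped1 had r = 0.55 with the same mean over the telencephalon markers, where Kif21b had -0.31. The points share their library, its depth and its dissection.

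**Figure D5:**
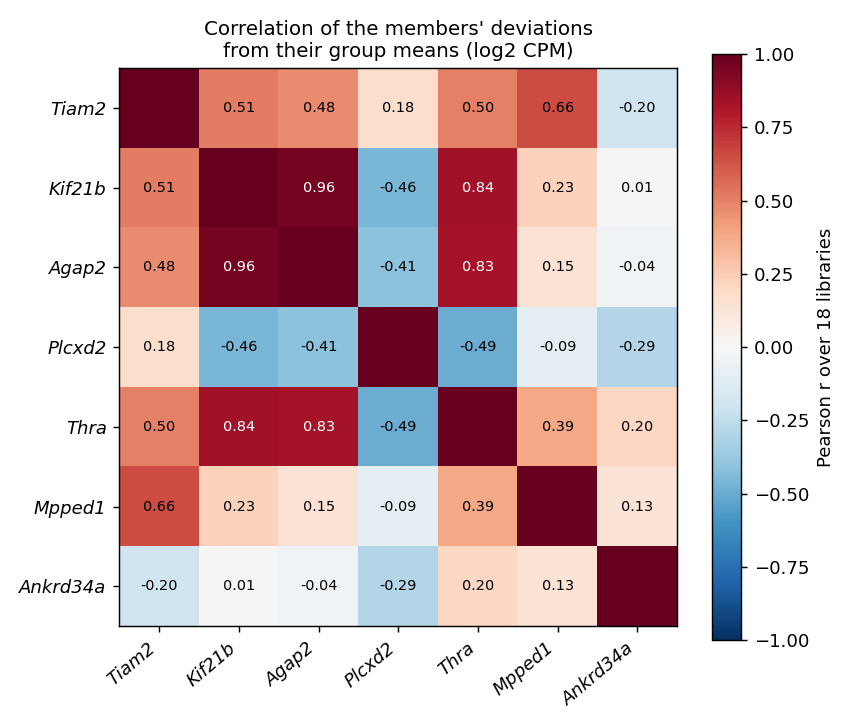
Pearson correlation between members over 18 libraries after removing group means from log2 CPM; both axes list the members and colour gives r. The block of Kif21b, Agap2 and Thra is at 0.83 to 0.96 and Plcxd2 is below 0 with these 3.

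The genes most like each member were found over the 18 libraries after the mean of each cross was removed, so these values include the genotype differences. Kif21b and Agap2 shared Chd5, a chromatin remodeller of neurons, at r = 0.98 for both, and Dmtn, an actin-binding protein, also at 0.98 for both. The next for Kif21b was Agap2 itself at 0.97, and for Agap2 the adhesion receptor Adgrl1 at 0.97. The nearest to Thra were Adgrb2 at 0.98, Nrxn2 at 0.97 and Sdc3 at 0.95, which are all cell surface proteins of neurons. Plcxd2 was nearest to the nuclear factor I genes Nfib and Nfia, at 0.94 and 0.93, and to Sema3a, a repellent guidance cue, at 0.91. Tiam2 was nearest to Nfix, another nuclear factor I gene, at 0.95, and to Neurod2, a transcription factor of cortical excitatory neurons, at 0.94, followed by Cdh4 at 0.93. The nearest to Mpped1 were Ltbp3 at 0.93, Neurod2 at 0.92 and Foxo6 at 0.92. Ankrd34a had lower values, with Nxph3 at 0.89 and Agpat3 and Rnpepl1 at 0.87.

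Within each cross alone, over 9 libraries, the likenesses of Tiam2 and Mpped1 depended on the cross. With Tiam2, Nfix, Neurod2 and Cdh4 had 0.98, 0.96 and 0.97 in the gtf2i cross but 0.71, 0.58 and 0.45 in the ird1 cross. With Mpped1, Ltbp3, Neurod2 and Foxo6 had 0.98, 0.93 and 0.96 in the gtf2i cross and 0.80, 0.86 and 0.71 in the ird1 cross. Those of Plcxd2 were high in both, with 0.90 to 0.92 for Nfib, Nfia and Sema3a in the ird1 cross, where Plcxd2 was higher in ird1/ird1. The Kif21b values for Chd5 and Dmtn were 0.97 and 0.95 there. The gene nearest to the mean profile of all 7 was Neurod2 at 0.97, followed by Bdh1, Ntng2, Rnf112 and Foxo6 at 0.96, 0.96, 0.95 and 0.95. In wt, gtf2i and gtf2i/gtf2i, Neurod2 had 129 ± 32.9, 145 ± 9.37 and 54.3 ± 4.14 CPM (SD, n = 3). Its log2 fold change in gtf2i/gtf2i against wt was -1.25 (SE 0.150), beside -1.16 for Tiam2. Since the likeness includes the genotype differences that chose the members, this value is a description. In the ird1 cross it had 147 ± 17.2, 131 ± 5.82 and 121 ± 11.7 CPM for wt, ird1 and ird1/ird1.

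By position the 7 members are spread over 7 chromosomes in RefSeq GRCm38.p6. Tiam2 spans chr17:3326313-3519397, Plcxd2 chr16:45959261-46010413, Kif21b chr1:136131390-136178001 and Agap2 chr10:127075269-127093170. Thra spans chr11:98740776-98769006, Mpped1 chr15:83779472-83858487 and Ankrd34a chr3:96595928-96600126. Tiam2 overlaps Tfb1m, a mitochondrial methyltransferase gene, by 148 bases, and Tfb1m had a log2 fold change of -0.08 (SE 0.194) in gtf2i/gtf2i against wt.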

How the data were processed

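RNA was sequenced from E13.5 whole mouse brain in 18 libraries, 3 for each of 6 genotype labels. Per the labels' protocols, ribosomal RNA was depleted before library preparation. Trimmomatic, STAR, HTSeq and the build mm10 are named in the submitters' processing notes, with no versions. The authors deposited raw counts of reads for each gene, as whole numbers, and 1 transcript length per gene in bases. The smallest value of each library was about 3 CPM before TMM scaling, so the deposited counts had been filtered. The 32 chromatin immunoprecipitation and input samples were not analysed here.

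The members and gene lists were chosen with earlier results of these data known. Counts were scaled by TMM, and filterByExpr removed 0 genes. They were tested with the quasi-likelihood test of edgeR 4.0.16 in R 4.3.3, with Benjamini-Hochberg adjustment over 11708 genes and a threshold of 0.05. Contrasts within a cross used its 9 libraries, with 6 residual degrees of freedom. The difference of effects and the wt groups used all 18. Log2 CPM for correlations had a prior count of 2. CPM per kb is CPM divided by transcript length over 1000 bases. The fits were tested on simulated data. Alternatives were DESeq2 1.42.0, its size factors (RLE) in edgeR, no filter, a replicate block, all 18 libraries, a prior count of 0.5 and leaving out each library. Leaving out libraries in the correlations, and correlations by cross, were chosen after seeing the data.

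Total counts ran from 3239117 to 7371483, and counting errors cover counting only.

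The first number in the sample titles served only as the replicate block, and replicate numbers in the text name libraries and pair none. In the gtf2i cross, gtf2i/gtf2i and wt libraries with the same number deviated together in all 3 pairs, with r of 0.377, 0.103 and 0.520 across genes. The edgeR tests do not use this pairing unless the replicate block is named. The pairs of other groups of that cross had r from 0.048 to 0.354, and same-numbered libraries of the ird1 cross had r from -0.30 to 0.29.

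The genes named were the members, Gtf2i and Gtf2ird1, the listed relatives, the 3 genes most like each member and the 5 most like their mean, and the genes of each pathway list that passed in any genotype contrast. Nr1d1 and Tfb1m were added for their overlap with members. A table of Ensembl names held 11704 of the identifiers. Some genes that this rule names are not reported here.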

Additional observations from a re-analysis of the deposited data

Results flagged for a closer look

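The effect of gtf2i/gtf2i differed from that of ird1/ird1 in edgeR's test of the difference for 4 of the genes followed here. Over all 11708 genes, 20 passed this test. Plcxd2 had a difference of -0.83 (SE 0.159) on the log2 scale, being lower in gtf2i/gtf2i and higher in ird1/ird1, each against its own wt. The Plcxd2 difference passed in 3 of 12 fits with a library left out, with an adjusted p in edgeR from 0.00999 to 0.126. Since Plcxd2 was chosen from these contrasts, this is a description. The telencephalon markers Neurod6 and Neurod2 had differences of -1.38 and -0.97. Gtf2i, the targeted gene, had -2.88.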

How the results depend on the processing

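Every member kept the sign of its log2 fold change in 11 of 11 alternatives for gtf2i/gtf2i against wt, gtf2i/gtf2i against gtf2i and ird1/ird1 against wt. Counts of genes that passed moved more. With DESeq2 they were 310 for gtf2i/gtf2i against wt (110 in edgeR), 6 for gtf2i against wt (1), 3 for ird1/ird1 against wt (1), 1 each for ird1 against wt and ird1/ird1 against ird1 (0), 84 for the difference of effects (20 in edgeR, of which 15 were higher, against 44 of the 84) and 1354 for the wt groups (0). With the replicate block in edgeR they were 624 for gtf2i/gtf2i against wt, 2 for gtf2i against wt, 892 for gtf2i/gtf2i against gtf2i (365 without), and 83 genes with 2 members for the difference of effects. The block changed no call of a member in the ird1 cross and could not be fitted for the wt groups, whose numbers do not overlap. Fitting all 18 libraries gave 262 for gtf2i/gtf2i against wt, 3 for gtf2i against wt, and 1 each for ird1 against wt and ird1/ird1 against ird1. The cause of these shifts was not tested.

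With 1 library left out, gtf2i/gtf2i against wt gave 28 to 1159 genes and 0 to 6 members, the highest without gtf2i/gtf2i replicate 3. Likewise, gtf2i/gtf2i against gtf2i gave 67 to 1376 genes and 2 to 6 members, the difference of effects 12 to 723 genes and 0 to 2 members, and ird1 against wt 0 to 1 genes. The wt groups gave 0 to 2076 genes and 0 to 2 members. The median r between members was 0.07 with the replicate block and 0.18 with a prior count of 0.5. Depth limits Ankrd34a most, with 33 to 120 reads per library.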
